A study of Mus musculus with 4 samples.

Results

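The genes described here encode titin and the proteins that anchor it, namely the proteins of the Z disc, the M band and the intermediate filament network of heart muscle. They are 34 of the 23420 gene symbols counted in the series, taken by symbol from a fixed list of titin, alpha-actinin, myomesin, Z disc, M band and intermediate filament genes. The rule uses no measured value, but the list was chosen with earlier results of these data known. All 34 were present, and 32 reached a mean of 1 CPM (counts per 1000000 gene counts) and entered the test of spread between libraries. The series holds 4 libraries of polyadenylated RNA from the heart, all of a single group of wild-type C57BL/6J mice, an inbred laboratory strain, labelled male and 12 weeks old, with no treatment, transgene or control group. The tissue label names the whole heart, whereas the protocol describes the frozen apex of the ventricles. The only comparisons open are therefore between genes within a library and between the 4 libraries. Whether the 4 libraries stem from 4 separate animals is not stated in the labels, so the p-values describe the spread among libraries, part of which may be technical.

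Libraries 1 to 4 held between 10523709 (library 3) and 15359296 (library 4) reads assigned to genes. Libraries 2 and 3 went against the male label: Xist, the RNA of the inactive X chromosome, had 5, 1897, 1806 and 19 counts in libraries 1 to 4, and the Y-linked Ddx3y had 341, 0, 1 and 437. Values for libraries 1 and 4 alone are therefore also given for the summed level and the test of spread. They are not given for every result that rests on libraries 2 or 3. Cardiomyocyte markers were abundant, with 7 of 7 above 1 CPM and a summed level of 88124 ± 5242 CPM (SD, n = 4). Of the 4 atrial markers, Myl7 and Sln were under 1 CPM and Myl4 was at 2.93 CPM, while Nppa, the natriuretic peptide, stood at 139.7 ± 8.15 CPM and made up nearly all of the 143 ± 7.82 CPM of that list. Of the 9 skeletal muscle markers, 6 were under 1 CPM, and Acta1, skeletal actin, which adult heart also makes, held 246 ± 47.0 of the 251 ± 47.2 CPM of that list. Smooth muscle and pericyte markers were all 7 above 1 CPM and summed to 747 to 816 CPM, and their part in the levels of genes that smooth muscle also expresses, such as palladin, synaptopodin-2 and Pdlim7, was not tested. In bulk tissue, fewer cells of a type and less RNA per cell cannot be told apart.

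The sarcomere, the contractile unit of striated muscle, is bounded by Z discs, where actin filaments of neighbouring sarcomeres are crosslinked, and is centred on the M band, where myosin filaments are held in register. Titin is a giant elastic protein that runs from the Z disc to the M band, and sets much of the passive stiffness of heart muscle. Around the Z disc sit adaptor and signalling proteins, and desmin filaments tie Z discs to each other and to the cell membrane. Mutations in many of these genes are known causes of cardiomyopathy or skeletal myopathy.

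Together the 34 genes held 40871, 37440, 46119 and 42411 CPM in libraries 1 to 4, a mean of 41710 ± 3599 CPM (SD, n = 4) or 4.17% of all gene counts. Library 3 was highest and library 2 lowest. Titin (Ttn) alone made up 47.7% of these counts, and without it the other 33 genes summed to 21812 ± 1063 CPM. With libraries 1 and 4 alone the sum was 41641 CPM. The share of Rn45s, the ribosomal RNA precursor and the most abundant entry, ran the other way, at 11.9% in library 3 and 14.1% in library 2. With Rn45s left out of the library sizes, the sums of the 34 genes were 46868, 43563, 52321 and 48349 CPM, with library 3 still highest and library 2 still lowest.

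Levels of the single genes differed widely. Among the 34 genes, 11 reached 1000 CPM, a level reached by 90 genes of the series in all, and a further 11 lay between 100 and 1000 CPM. Another 7 lay between 10 and 100 CPM, 3 between 1 and 10 CPM (Pdlim3, Myom3 and Myoz3) and 2 under 1 CPM (Actn3 and Myoz1).

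A long transcript yields more fragments than a short one at the same number of molecules, so levels of different genes were compared as CPM per kilobase (kb) of annotated exon. On this scale the highest of the 34 was Tcap at 1968 ± 436 CPM per kb (SD, n = 4). It ranked 9 among the 23062 symbols with an annotated length, which leave out Rn45s. Ttn fell from rank 1 among the 34 by CPM to rank 10 at 170.3 ± 24.6 CPM per kb (rank 11 with the longest transcript as length). Titin thus held 2.65% of the summed level per kb, whereas Tcap, a very short transcript, held 30.6%. The order after Tcap was Actn2, Fhl2, Des, Csrp3, Myoz2, Nrap, Myom2, Ldb3, Ttn, Myom1, Flnc, Cmya5, Xirp1, Synpo2l, Smpx, Xirp2, Mypn, Pdlim5, Palld, Fhl1, Obsl1, Synpo2, Pdlim1, Myot, Pdlim7, Synm, Nebl, Pdlim3, Myom3, Neb, Myoz3, Myoz1 and Actn3. Of the 33 neighbouring pairs in this order, 20 had overlapping ranges over the 4 libraries and 13 did not. Taken within each library, 18 of the 33 pairs had the same order in all 4 libraries, among them pairs with overlapping ranges such as Myoz2 with Nrap, Nrap with Myom2 and Ttn with Myom1. A length is the same for every library, so this agreement does not bear on the choice of length. With the longest transcript as length, Nrap stood under Myom2 (260 against 373 CPM per kb) and Ttn under Myom1 (186 against 272). The gaps wider than the spread in the upper part were from Tcap down to Actn2 (2.58-fold), from Des down to Csrp3 (2.08-fold) and from Myom1 down to Flnc (1.44-fold). Within the block from Csrp3 to Myom1, each gene overlapped its neighbour.

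**Figure D1:**
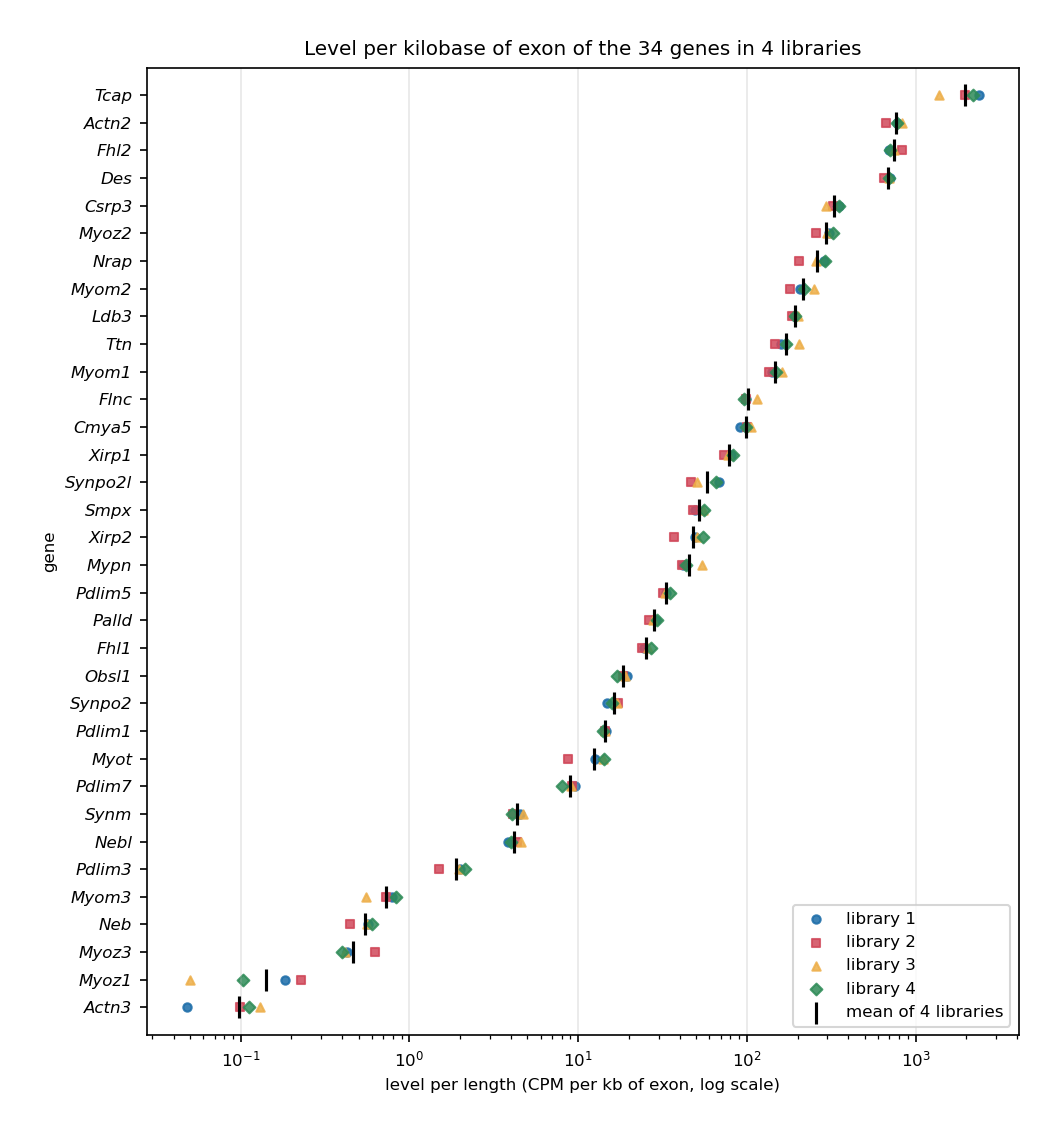
Level of each of the 34 genes in CPM per kb of exon (log axis), 1 point per library, with genes ordered by their mean (black bar). Tcap stands alone at the top with a mean of 1968 CPM per kb, Ttn is at rank 10, and Neb, Myoz3, Myoz1 and Actn3 lie at the bottom.

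**Figure D2:**
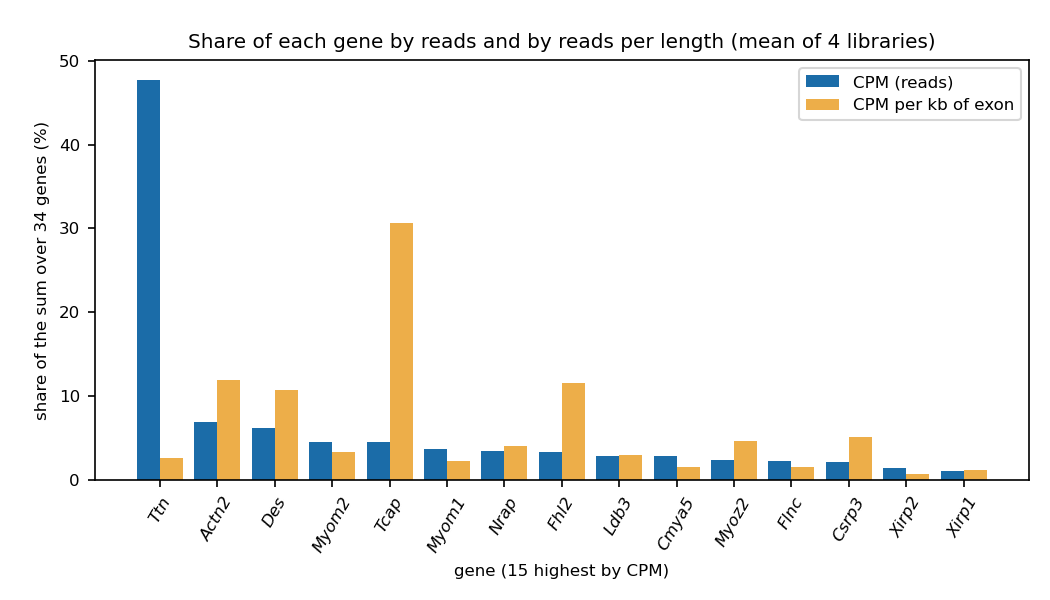
Share of the 15 most abundant of the 34 genes in the sum over all 34 (percent, mean of 4 libraries), by CPM (blue bars) and by CPM per kb of exon (yellow bars). Ttn takes 47.7% of the counts and 2.65% of the level per kb, and Tcap 4.47% and 30.6%.

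Promoter windows from RefSeq (build GRCm38.p6), each running from 250 bases before to 50 bases after an annotated start, were matched by symbol to 26 of the 34 genes (38 windows). They were searched on both strands for the MEF2 motif and the CArG box, recognised by the MEF2 factors and by serum response factor, and for M-CAT (CATTCC) and the TATA box (TATAAA). The MEF2 motif was found in 8 of 38 windows (21.1%), against 3.19% of all 32851 windows. By gene it was found in 7 of 26 (Fhl2, Myom3, Myoz2, Synpo2, Synpo2l, Ttn and Xirp2), against 3.70% of all 27025 genes. The CArG box was found in 7 of 38 windows (18.4%), against 1.63% of all windows. By gene it was found in 5 of 26 (Fhl1, Fhl2, Ldb3, Myom1 and Nebl), against 1.81% of all genes. Shares were nearer to those of all windows for M-CAT (18.4% against 14.7%) and TATA (15.8% against 13.6%). In 2 of the windows the MEF2 match overlapped a TATA match, and 2 overlapping Ldb3 windows held the same CArG box. A match describes the letters of the window and was not tested as a site. The stretches below are shown because they hold the MEF2 or CArG letters, in capitals, before a RefSeq start of genes described in the next paragraphs. They read 5′ to 3′ along the gene's strand, all of them before the RefSeq start. The Ttn stretch is chr2:76982679-76982738 (minus strand), Xirp2 is chr2:67445903-67445962 (plus), Synpo2l is chr14:20668429-20668488 (minus) and Myoz2 is chr3:123034988-123035045 (minus). The Fhl2 stretches are chr1:43196762-43196817 and chr1:43196823-43196882 (minus), Ldb3 is chr14:34588682-34588741 (minus) and Myom1 is chr17:71019433-71019492 (plus). The Fhl2 and Myom1 stretches lie inside the genes as GENCODE draws them. The Myoz2 stretch reaches into its gene as drawn there, and the Ldb3 stretch touches the first base of its gene.
Ttn, MEF2: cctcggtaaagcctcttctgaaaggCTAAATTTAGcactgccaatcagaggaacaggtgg
Xirp2, MEF2: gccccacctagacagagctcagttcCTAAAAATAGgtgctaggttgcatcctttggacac
Synpo2l, MEF2: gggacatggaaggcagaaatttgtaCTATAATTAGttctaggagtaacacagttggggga
Myoz2, MEF2: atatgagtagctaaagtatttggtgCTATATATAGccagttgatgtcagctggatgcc
Fhl2, MEF2: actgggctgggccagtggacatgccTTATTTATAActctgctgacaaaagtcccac
Fhl2, CArG box: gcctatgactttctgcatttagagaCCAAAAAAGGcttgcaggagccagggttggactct
Ldb3, CArG box: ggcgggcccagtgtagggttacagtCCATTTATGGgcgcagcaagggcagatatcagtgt
Myom1, CArG box: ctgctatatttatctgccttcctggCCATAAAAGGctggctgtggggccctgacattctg

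Titin is encoded by Ttn (chromosome 2, 76703980 to 76982547, minus strand, GRCm38), whose longest annotated transcript has 347 exons and 106824 bases. It had 18616, 17208, 23889.9 and 19878 CPM in libraries 1 to 4 (19898 ± 2876, SD, n = 4), rank 4 of all genes by CPM. Library 3 was highest and library 2 lowest, 1.39-fold apart. Gene counts do not separate the stiff and compliant splice forms of titin. Telethonin, the cap that joins a pair of titin N termini at the Z disc, is encoded by Tcap (chromosome 11, 98383811 to 98384953, plus strand), with only 948 bases of exon. Tcap had 2249, 1849, 1297 and 2067 CPM (1865 ± 413). Its order over the libraries was unlike that of titin, since library 3, the highest for Ttn, was the lowest for Tcap. Per kb, Tcap stood 14.9, 13.2, 6.69 and 12.8 times above Ttn in the 4 libraries (11.9 ± 3.59), above it in each. By contrast, the level per kb of Myom2 relative to Ttn varied little, from 1.22 to 1.30 (1.26 ± 0.0391).

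Alpha-actinins crosslink actin filaments at the Z disc. Actn2, the form of heart and skeletal muscle, had 2956, 2526, 3140.0 and 2958 CPM (763 ± 68.7 CPM per kb, SD, n = 4), lowest in library 2. Per kb it stood 4.51 ± 0.348 times above Ttn. Actn3, the form of fast skeletal fibres, had 2, 4, 4 and 5 counts, close to the floor of 3 counts (0.195 to 0.285 CPM, depending on the library) that a count of 0 allows. Over the 4 libraries together, Actn2 had 156224 counts and Actn3 15, a ratio of 10415 with an exact binomial 95% interval of 6314 to 18609, which covers counting error only.

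Nebulin-family proteins bind the thin filament. Nebl (nebulette, the cardiac Z disc form) had 58.4, 66.1, 69.9 and 61.3 CPM, and Neb (nebulin, the long ruler of skeletal muscle thin filaments) had 15.1, 11.8, 14.9 and 15.95 CPM. Nebulette counts were 4.44-fold higher than nebulin counts, and 7.75-fold higher per kb, in 4 of 4 libraries. With the longest transcript as length, the ratio per kb was 12.4. Both were scarce relative to other Z disc genes, at 4.20 ± 0.336 and 0.543 ± 0.0685 CPM per kb (SD, n = 4). The Nebl gene also gives rise to a short LIM-domain product, lasp-2, that gene counts do not separate.

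Calsarcins tether calcineurin to alpha-actinin. Myoz2, the calsarcin of heart and slow fibres, had 1053, 879, 1019 and 1109 CPM (297 ± 28.7 CPM per kb, SD, n = 4), with library 2 lowest. The fast-fibre forms were scarce. Myoz1 had 5, 6, 1 and 3 counts, and Myoz3 had 21, 30, 15 and 21 counts. Over all libraries, Myoz2 counts exceeded those of Myoz1 by a ratio of 3678, with an exact binomial 95% interval of 2230 to 6572. Myoz2 exceeded Myoz3 628-fold, between 401 and 793-fold in the single libraries.

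Myotilin, myopalladin and palladin are related proteins with immunoglobulin domains that bind alpha-actinin. Palld had 296, 271, 287 and 303 CPM, Mypn 243, 242, 317 and 252 CPM and Myot 27.7, 19.3, 30.9 and 31.3 CPM. Myopalladin was higher in library 3 than in the other 3 libraries, and myotilin was lower in library 2. By counts Palld lay above Mypn in 3 of 4 libraries, but its annotated exons are longer, and per kb Mypn was 1.60-fold above Palld in 4 of 4 libraries (45.3 ± 6.20 against 28.1 ± 1.37 CPM per kb, SD, n = 4). With the longest transcript as length, Mypn was 1.10-fold above Palld and higher in 3 of 4 libraries. Myot was lowest of the 3 on both scales, 9.76-fold under Mypn by counts and 3.70-fold per kb.

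The PDZ-LIM proteins link alpha-actinin to kinases. Ldb3 (ZASP or cypher), the striated muscle member, had 1164, 1125, 1221 and 1174 CPM (192 ± 6.49 CPM per kb, SD, n = 4), a coefficient of variation (CV, SD over mean) of only 3.38%. Pdlim5 (enigma homolog) followed at 294, 283, 290.0 and 313 CPM, then Pdlim1 at 76.8, 75.9, 75.8 and 74.4 CPM and Pdlim7 (enigma) at 46.8, 44.6, 44.0 and 39.1 CPM. Pdlim1 had the smallest CV of the 34 genes, 1.35%. Pdlim3 (actinin-associated LIM protein), best known from skeletal muscle, had 10.2, 7.76, 10.1 and 10.9 CPM, 7.81-fold under Pdlim1. The ranges of these 5 genes did not overlap on either scale.

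Among proteins built from LIM domains, Fhl2, a cofactor that docks on titin, had 1314, 1571, 1417 and 1334 CPM (743 ± 61.8 CPM per kb, SD, n = 4). It was highest in library 2, the library in which most of the other genes were lowest. Csrp3 (muscle LIM protein, a proposed stretch sensor) had 941, 867, 787 and 936 CPM, with library 3 lowest. Fhl1, encoded on the X chromosome, had 90.9, 88.7, 96.6 and 100.1 CPM. Fhl2 stood 14.95-fold above Fhl1 by counts and 29.3-fold per kb, in 4 of 4 libraries.

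In the M band, myomesins crosslink myosin filaments to titin. Myom2 (M-protein) had 1831, 1586, 2225 and 1927 CPM and Myom1 (myomesin) had 1467, 1414, 1695 and 1565 CPM. Both were highest in library 3 and lowest in library 2. Myom2 was 1.23-fold above Myom1 by counts and 1.45-fold per kb, in 4 of 4 libraries. Myom3, best known from skeletal muscle fibres, had 69, 61, 35 and 77 counts, and Myom1 exceeded it 351-fold. Obsl1, a cytoskeletal adaptor that binds titin and myomesin, stood at 156 ± 8.77 CPM (SD, n = 4).

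Filamin C (Flnc) crosslinks actin at the Z disc and membrane, and had 926, 927, 1087 and 899 CPM, with library 3 above the rest. The actin-binding Xin proteins sit with it at intercalated discs. Xirp2 had 589, 442, 607 and 658 CPM, lowest in library 2, and Xirp1 had 473, 429, 449 and 480.4 CPM. Xirp2 was 1.24-fold above Xirp1 by counts in 4 of 4 libraries, but Xirp1 was 1.65-fold above Xirp2 per kb, also in 4 of 4. Nrap, a scaffold at intercalated discs, had 1586, 1127, 1410.1 and 1609 CPM (260.2 ± 40.4 CPM per kb, SD, n = 4), with library 2 lowest. The actin-binding synaptopodin-like protein Synpo2l had 317, 217, 234 and 304 CPM. Like other genes of the list, among them Tcap, Nrap and Csrp3, it was higher in libraries 1 and 4 than in libraries 2 and 3. Libraries 2 and 3 are those that went against the male label. Some genes, such as Fhl2, Nebl and Cmya5, were lower in libraries 1 and 4. The share of all genes with either split was not counted, and a link to sex was not tested. The relative of Synpo2l, Synpo2 (myopodin), had 194, 225, 223 and 208 CPM. The ratio of Synpo2l to Synpo2 was 3.52 per kb and held its direction in 4 of 4 libraries, whereas by counts the order held in 3 of 4.

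Desmin (Des), the muscle intermediate filament, had 2643, 2446, 2607 and 2623 CPM (687 ± 24.1 CPM per kb, SD, n = 4), with a CV of 3.51%. Its partner synemin (Synm) had 35.7, 32.7, 37.4 and 31.97 CPM, 74.9-fold lower by counts and 158-fold lower per kb. Cmya5 (myospryn), a desmin-binding scaffold, had 1075, 1188, 1248 and 1172 CPM. Libraries did not keep strand, so reads of overlapping genes on opposite strands cannot be told apart. For Cmya5, 20.7% of exon bases overlap an antisense gene, A630019I02Rik, which was itself counted at 1, 5, 10 and 5 reads, and for the other genes no annotated overlap with another gene exceeded 5.86% of exon bases. Smpx, a small muscle protein encoded on the X chromosome, had 112, 109, 125 and 126 CPM.

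**Figure D3:**
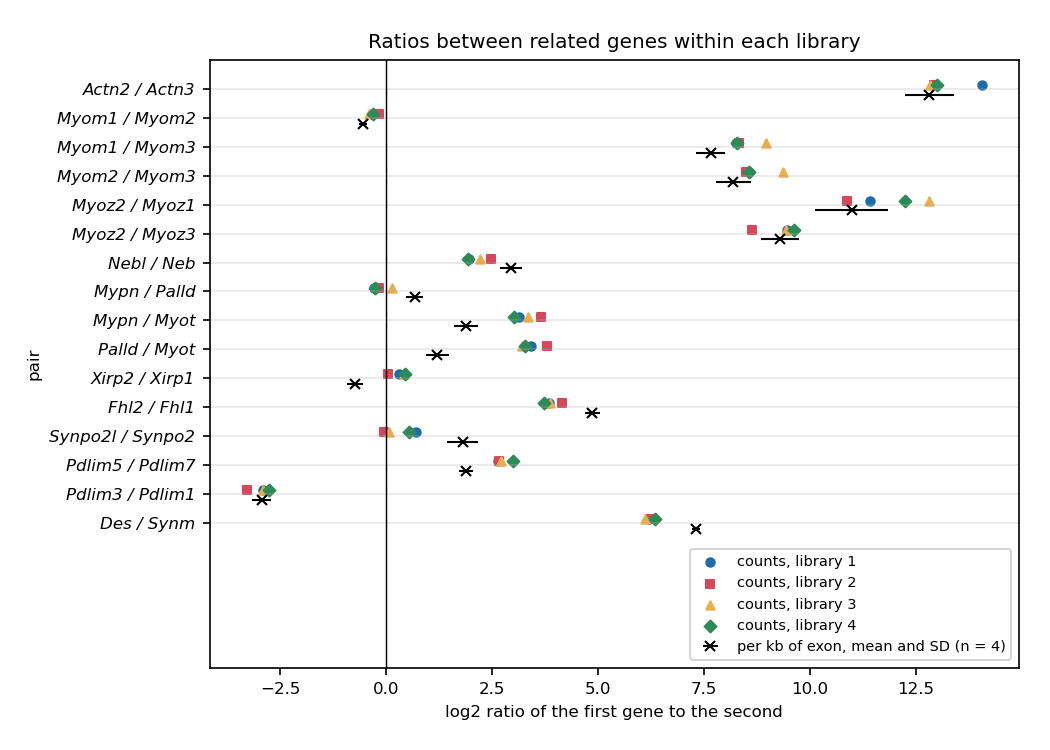
Ratio of the first to the second gene in 16 pairs of related genes, on a log2 scale, by counts in each library (coloured symbols) and per kb of exon (cross, mean, with bars of 1 SD over 4 libraries). Actn2 over Actn3 and Myoz2 over Myoz1 are the widest, and Mypn over Palld and Xirp2 over Xirp1 lie on opposite sides of 0 on the 2 scales.

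These ratios belong to 16 pairs of related genes. By counts, 14 pairs kept the same order in all 4 libraries (12 with the first gene of the pair higher, 2 with the second), and per kb all 16 did. The mean direction of 2 pairs, Mypn with Palld and Xirp2 with Xirp1, changed between the scales. In an exact sign-flip permutation test over 4 libraries (two-sided), each of the 14 reached p = 0.125, the smallest that 4 libraries allow, and an adjusted value of 0.143 over the 16 pairs, so no pair could pass 0.05. Mypn with Palld and Synpo2l with Synpo2 had p = 0.25 by the same exact test.

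No gene of the 34 was called more variable between libraries than other genes of its abundance. With edgeR's quasi-likelihood test, 0 of 32 genes passed an adjusted p of 0.05, against 55 of all 12360 genes tested (0.445%). DESeq2's dispersion outliers and limma on log2 CPM also gave 0 of 32. At an unadjusted p under 0.05, edgeR marked 8 of the 32 (Tcap, Synpo2l, Xirp2, Nrap, Myot, Ttn, Myom2 and Mypn), against 6.00% of all genes tested. With libraries 1 and 4 alone, only Tcap and Xirp2 of these 8 stayed under 0.05 by edgeR, while Obsl1, Pdlim7 and Smpx came under it. The share of all genes under 0.05 with libraries 1 and 4 alone was not counted, so nothing about the list is drawn from these genes. The variance relative to the trend for that abundance exceeded 1 in 23 of the 32, against 43.5% of all genes, and its median on the log2 scale was 0.70, against -0.23 over all genes tested. Among genes of at least 100 CPM, the 22 members of the list had a median CV of 8.26%, and all 1401 such genes 5.39%.

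Tcap came nearest to a call, with a CV of 22.1% and an adjusted p of 0.125 (edgeR). Next came Synpo2l at an adjusted p of 0.35, Xirp2 at 0.409, Nrap at 0.433, Myot at 0.511, Ttn at 0.518, Myom2 at 0.53 and Mypn at 0.628, all from the same edgeR fit. The value for Tcap turned on the libraries used. Without library 2 it was 0.0137, and Tcap was then the only gene called of the 32, against 0.559% of all genes. Without library 3, in which Tcap was lowest, it was 0.896, and with libraries 1 and 4 alone 0.851. Without a filter on low counts, 5 of the 34 genes were called (Nrap, Synpo2l, Tcap, Ttn and Xirp2), against 1.48% of all genes.

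**Figure D4:**
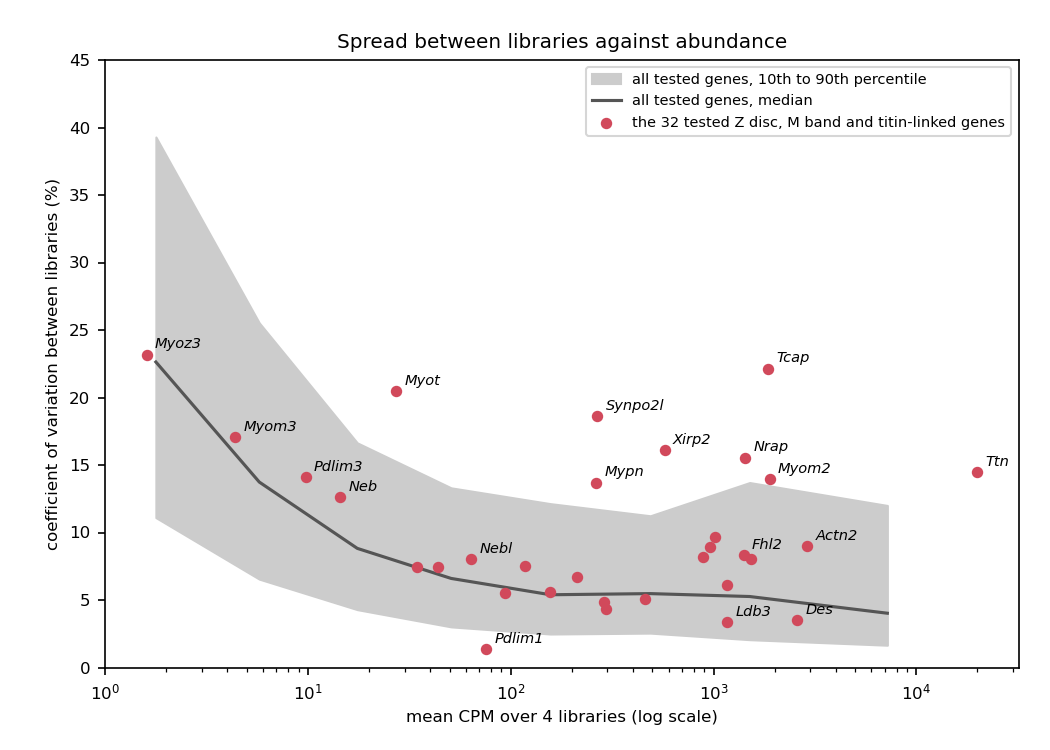
CV over the 4 libraries (percent) against mean CPM (log axis) for the 32 tested genes of the list (red points), set against the median (line) and the 10th to 90th percentiles (grey band) of all genes tested, in bins of abundance. Of the 32, 25 lie above the median of their bin and 8 above its 90th percentile, and Pdlim1, Ldb3 and Des lie low.

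The libraries differed in how many of the 32 genes they placed at an extreme. Library 2 was lowest for 19 of the 32, whereas it was lowest for 30.7% of all genes tested. It was also lowest for 19 under TMM scaling (31.1% of all genes) and for 17 with Rn45s left out (26.0% of all genes). Library 3 was highest for 10 and library 4 for 12, against 22.9% and 27.0% of all genes, and under TMM scaling library 3 was highest for 15, against 27.6% of all genes. Library 3 deviated from the mean, on the log2 scale, by 0.27 for Ttn, 0.28 for Mypn, 0.24 for Myom2 and 0.18 for Flnc, and by -0.49 for Tcap.

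Medians over all tested genes of like transcript length or base composition also differed between libraries. Over the 136 genes with transcripts longer than 12 kb, which include Ttn, the median log2 deviation was 0.06 in library 3 and -0.06 in library 2, the same signs as for Ttn. With 47.4% GC, Ttn also belongs to the 3187 genes of 45 to 50% GC. Their medians were -0.0038 in library 3, opposite in sign to Ttn, and -0.016 in library 2. Tcap, with 61.3% GC and a transcript of 0.948 kb, belongs to the 511 genes with more than 60% GC, at a median of -0.07 in library 3, and to the 461 genes of up to 1 kb, at -0.0011. Mypn and Myom2 lie in classes of 4 to 8 kb and 50 to 55% GC, whose library 3 medians were -0.0081 and -0.04, opposite in sign to their own deviations. Flnc lies in classes of 8 to 12 kb and 55 to 60% GC, with medians of 0.03 and -0.05. The genes named here were picked for their deviations in library 3, so medians over whole classes cannot be weighed against them. The part of transcript length and base composition in the result was not tested.

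**Figure D5:**
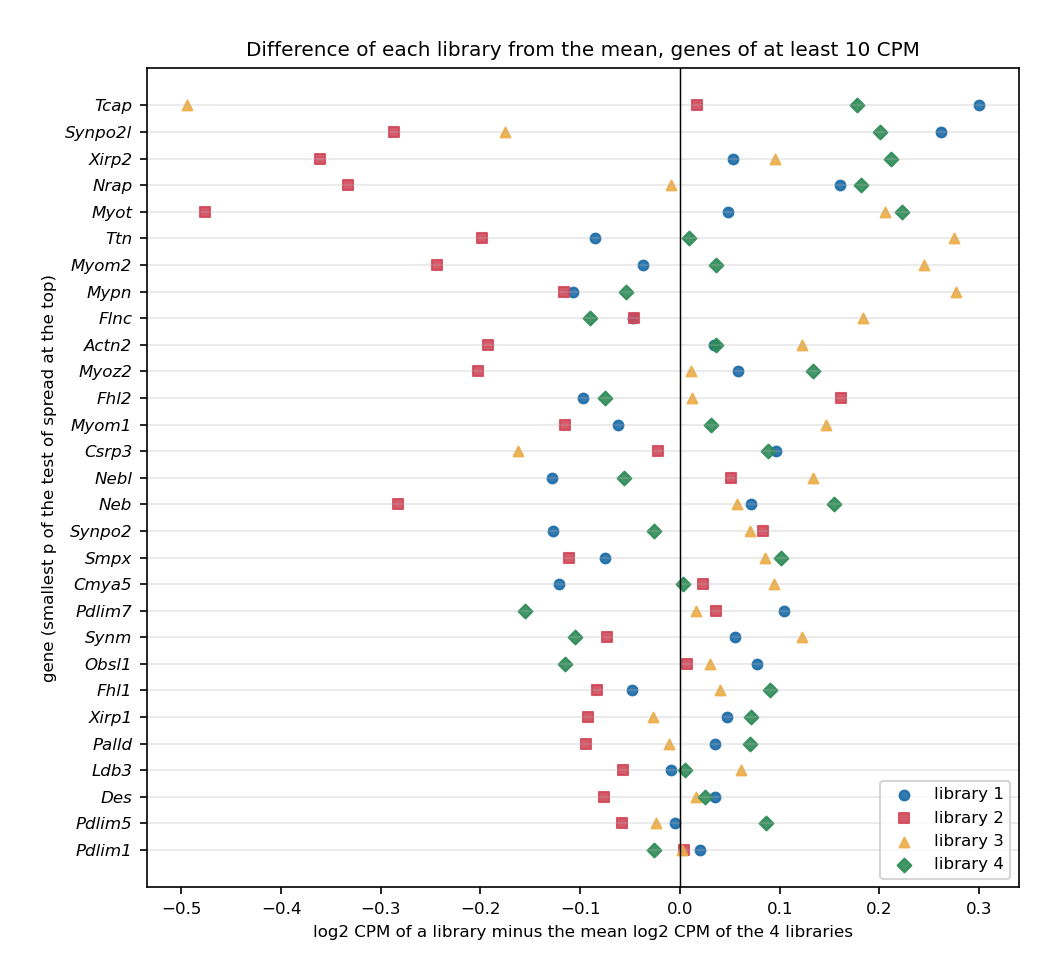
Log2 CPM of each library minus the mean log2 CPM of the 4 libraries, for genes of at least 10 CPM, with 1 symbol per library and the genes of smallest p in the test of spread at the top. Library 2 lies leftmost for most genes, and library 3 lies far right for Ttn (0.27), Mypn (0.28) and Myom2 (0.24) and far left for Tcap (-0.49).

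A list of 50 other genes of the titin, Z disc and costamere machinery was measured alongside, of which 49 reached 1 CPM and only Ankrd2 did not. They summed to 16595 ± 896 CPM (SD, n = 4), less than the 34 genes, and included the chaperone Cryab (2270.5 ± 266 CPM), the linker plectin (Plec, 1182 ± 71.6 CPM), the titin-binding stress protein Ankrd1 (1129 ± 412 CPM) and the thin filament elongation factor Lmod2 (860.4 ± 135 CPM). Of the 49, edgeR called 1 more variable, against 0.445% of all genes, namely Ankrd1 (adjusted p = 0.0118), which had 1373, 540.0, 1155 and 1448 CPM and was lowest in library 2. It was not called by edgeR without library 2 (adjusted p = 0.731), with libraries 1 and 4 alone (0.983) or with a prior that is not robust (0.0895). At an unadjusted p under 0.05, edgeR marked 8 of the 49, against 6.00% of all genes tested.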

How the data were processed

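Polyadenylated RNA of 4 libraries was analysed from the raw read counts per gene that the authors deposited. Per the submitters' processing notes, the build was mm10 and the tools were TopHat, TopHat2 2.0.10, Bowtie2, HTSeq, edgeR and DESeq, with no roles stated. Annotation and counting settings: not given in the sources used here. The 5 closing entries that name no gene (8.96 to 9.30% of listed reads) were left out. CPM is counts per 1000000 gene counts. Lengths and positions are from GENCODE M21 on GRCm38, which mm10 denotes (23062 of 23420 symbols matched); CPM per kb divides by the union of annotated exons.

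Spread between libraries was tested over all 12360 genes averaging 1 CPM or more, with edgeR 4.0.16 in R 4.3.3 (intercept only, TMM factors, robust quasi-likelihood prior, upper tail, Benjamini-Hochberg), after a test on simulated data. Alternatives were DESeq2 1.42.0 factors and dispersion outliers, limma 3.58.1, no filter, a prior that is not robust, Rn45s or Ttn left out, other lengths, other added counts, libraries 1 and 4 alone and each library left out. Pair ratios add 0.5 to each count. Limits for counts are exact.

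All members are described. Values per library are given for the 10 highest by CPM and per kb, those under 10 CPM, the extremes of CV, paralog pairs and X-linked genes. The members and lists were chosen with earlier results of these data known. A gene of the list of other genes is not reported here.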

Additional observations from a re-analysis of the deposited data

Results flagged for a closer look

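Of 51 values checked (the level of each gene, their sum and the 16 pair ratios), 6 had a library whose gap to the nearest other library, divided by the range of all 4, exceeded Dixon's 95% critical value. Chance gives about 1 in 20 for a single value. The 51 values are not independent, since the sum and the ratios reuse the counts of the same genes. The share of all genes flagged by this rule was not counted. Mypn was at 317 CPM in library 3, against 242 to 252 CPM in the others. Flnc was at 1087 CPM in library 3, against 899 to 927 CPM. Myoz3 was at 2.16 CPM in library 2, against 1.37 to 1.46 CPM, which are 30 counts against 15 to 21. The log2 ratio of Actn2 to Actn3 was 14.06 in library 1, against 12.84 to 13.01, where Actn3 had 2 counts against 4 or 5. The log2 ratios of Myom1 and Myom2 to Myom3 were 8.97 and 9.37 in library 3, against 8.25 to 8.32 and 8.49 to 8.58, where Myom3 had 35 counts against 61 to 77.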

How the results depend on the processing

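The call of 0 of 32 genes held under a prior that is not robust, DESeq2 factors, DESeq2's dispersion outliers, limma, Rn45s left out and libraries 1 and 4 alone. Leaving out the filter on low counts gave 5, where more genes were tested, and 0 to 1 with each library left out (1, Tcap, without library 2). For the 50 other genes, the count was 1 with all libraries, 0 to 1 with each library left out and, in settings added after seeing the data, 0 with a prior that is not robust or with libraries 1 and 4 alone, 2 with no filter and 1 under DESeq2 factors, its dispersion outliers, limma or Rn45s left out. Over all genes the test called 55, but 258 with no filter, 129 by DESeq2's dispersion outliers, 10 with a prior that is not robust and 11 with libraries 1 and 4 alone; the cause was not tested. The summed level was 47775 CPM with Rn45s out of the library sizes and 21812 CPM without Ttn, by construction, and 40241 to 43134 CPM with each library left out. Levels of all 34 genes moved by less than 1 SD under TMM or DESeq2 factors, and with Rn45s out 25 of 34 moved by more. They also moved by less than 1 SD with each library left out and with libraries 1 and 4 alone. Taking a part of the 4 libraries in these ways cannot move a mean by 1 SD, so these settings could not have shown otherwise. Dividing by exon length moved 11 of the 16 log2 ratios by more than 1 SD and turned 2, Mypn/Palld from -0.14 to 0.68 and Xirp2/Xirp1 from 0.31 to -0.72, since the genes differ in length. Dividing by the longest transcript, also added later, moved 11 and turned the same pair of ratios, to 0.13 and -0.72. The number of pairs with the same order in all libraries used stayed between 14 and 16. Of the 10 genes highest per kb, 9 were also among the 10 highest with the longest transcript as length, and 8 by CPM. No paired analysis was possible because the series has 1 group. At 3 counts the floor was 0.195 to 0.285 CPM, so depth limits what can be said of Actn3 and Myoz1.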
